A study of Homo sapiens with 4 samples.

Results

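The genes described here are ligands, receptors and targets of the Notch pathway, namely *JAG1*, *JAG2*, *NOTCH1*, *NOTCH2*, *NOTCH3*, *LFNG*, *HES1*, *HES4* and *HEY1*. They were chosen by symbol, with earlier results of these data known, and all 9 were found among the 33694 genes of the count tables. Notch receptors sit on the surface of one cell and are activated by Jagged or Delta-like ligands on a neighbouring cell. Ligand binding lets proteases cut the receptor, and its intracellular part enters the nucleus, where it joins the DNA-binding protein RBPJ and turns on targets such as the HES and HEY repressors. Fringe enzymes, of which *LFNG* encodes one, add sugars to the receptor and change which ligands it responds to, and the pathway is known for its part in epithelial-mesenchymal transition (EMT) in carcinoma cells.

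OVCA420 is an established human ovarian cancer cell line of epithelial origin. It was left untreated (Ctrl) or given TGF-β1, a cytokine that induces EMT, at 10 ng/mL for 1, 3 or 7 days, with medium and cytokine renewed during the course and all wells collected together. Cells were passaged when needed to keep them from confluence, though not shortly before collection. The part of passaging in the results was not tested. One droplet-based 3′ single-cell RNA library was made from each condition, so that the 4 libraries hold no replicates and no test between conditions was possible. The values are counts of unique molecular identifiers (UMIs), each standing for 1 captured RNA molecule. The cells grew in medium with serum, which all conditions share, and the study's methods name no other cell type in the wells.

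The count tables used here hold the first part of each library in barcode order, 3170 of 10710 listed cells, and 3144 of them were retained. The retained cells held between 25382817 and 32949874 UMIs per library, and the median cell held 30270 (Ctrl), 32393 (1-day), 43553 (3-day) or 43382 (7-day). Between 1 and 7 barcodes were shared by each pair of libraries. *PMEPA1* and *SMAD7*, which are known to respond to TGF-β1, were past 2-fold at each time. *PMEPA1* went from 66.8 CPM (UMIs of a gene per 1000000 UMIs) in the untreated library to between 962 and 1501 CPM, and *SMAD7* from 4.33 CPM to between 16.9 and 28.5 CPM. The epithelial markers *EPCAM*, *KRT8*, *KRT18*, *KRT19* and *CDH1* were abundant, whereas *PAX8* and *WFDC2* stayed at or under 0.33 CPM and *MUC16* at or under 2.97 CPM. The 4 leukocyte markers summed to between 2.13 CPM (Ctrl) and 6.22 CPM (7-day), most of it *CD68*, with *PTPRC* at 0 UMIs in the treated libraries. The 4 endothelial markers summed to 5.40 CPM in Ctrl, nearly all of it *CDH5*, and to at most 0.473 CPM after treatment, with *CLDN5* at 0 UMIs throughout, and the 4 fibroblast markers to at most 1.37 CPM. The part of these marker shifts in the results was not tested. The share of cells called G1 was 20.4% in Ctrl and 74.6%, 45.0% and 33.7% at 1, 3 and 7 days, and its part in the results was not tested, so G1 values are given where they differ.

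Among the 7 members with a mean of at least 5 CPM, *JAG1*, *NOTCH2* and *LFNG* rose at least 2-fold over Ctrl at 1 or more times. *NOTCH3* fell at least 2-fold at every time. Of the scarcer genes, *HEY1* was 2.97-fold higher than Ctrl at 1-day (1.84 to 4.96), and *NOTCH1* was 2.71-fold higher in Ctrl than at 1-day. *JAG1* and *NOTCH2* were higher at each later time, whereas *LFNG* was highest at 1-day and had lost most of its gain by 7-day. Over all cells, *HES1* and *HES4* were lower than Ctrl in all treated libraries, by less than 2-fold. Levels below are the CPM of each gene when all cells of a library are pooled, and every interval is a 95% interval for counting error only. Variation between cells is not in the intervals, so a lack of overlap speaks of counting error alone. A 3′ library counts a molecule regardless of its length, so that shares between genes are given as shares of UMIs.

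**Figure D1:**
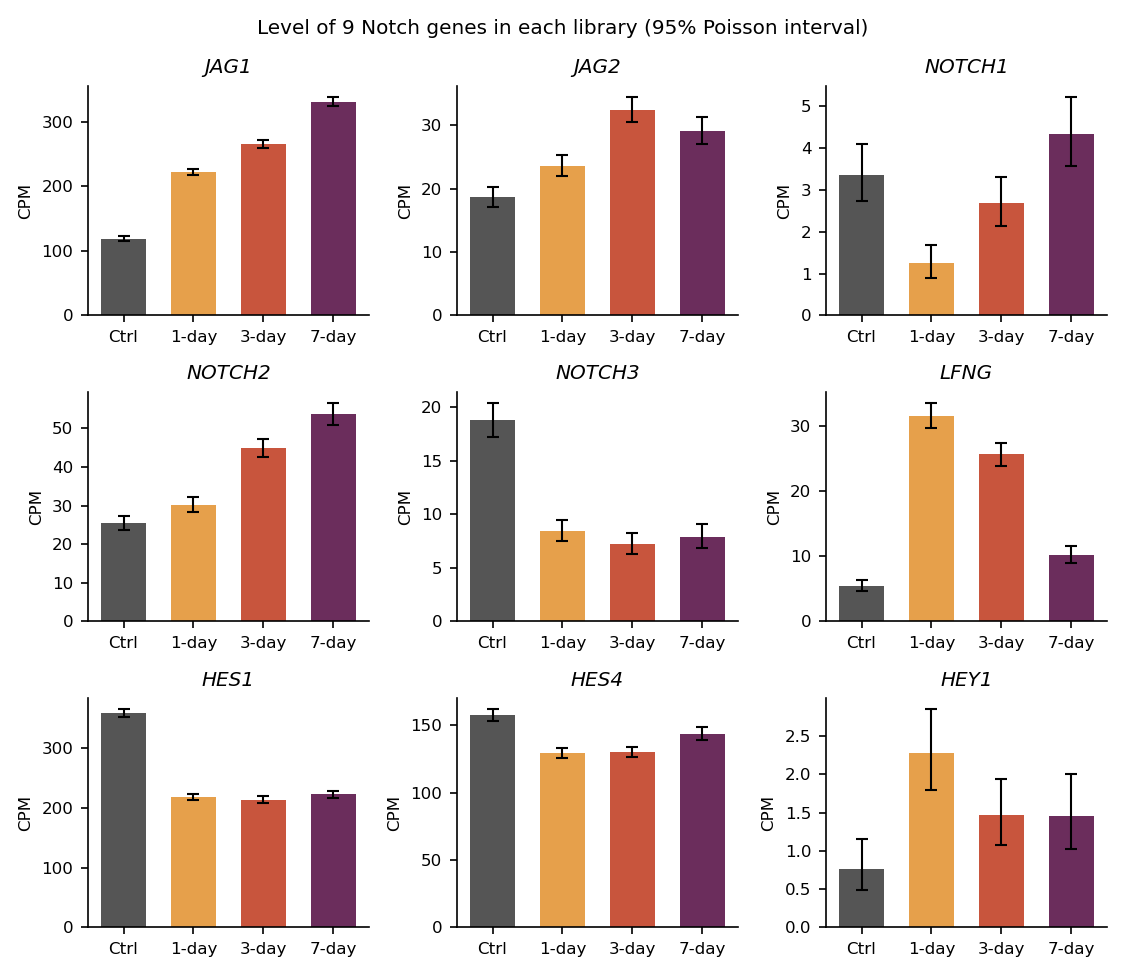
Level in CPM (vertical axis, a separate linear scale from 0 for each gene) of the 9 Notch genes in each of the 4 libraries, with bars for the library's level and whiskers for the 95% Poisson interval. *JAG1* climbs from 119 to 331 CPM, *LFNG* peaks at 31.6 CPM at 1-day, and *HES1* sits at 359 CPM in Ctrl and between 214 and 223 CPM after treatment.

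*JAG1* encodes the Jagged ligand with the more UMIs of the pair (GRCh38, chr20:10637684-10673999). Its level was 119 CPM in Ctrl (interval 115 to 123), 222 CPM at 1-day (217 to 227), 266 CPM at 3-day (260.2 to 272) and 331 CPM at 7-day (324 to 339). Every treated library lay above Ctrl, each later library lay above the one before, and no intervals overlapped. The ratio to Ctrl was 1.87-fold at 1-day (1.79 to 1.94), just under the 2-fold limit, then 2.23-fold at 3-day (2.15 to 2.32) and 2.79-fold at 7-day (2.68 to 2.90). Among the 9659 genes with a mean of at least 5 CPM over the 4 libraries, 94.1% had a lower ratio at 7-day than *JAG1*. An antisense RNA that overlaps the start of *JAG1* had between 2 and 9 UMIs per library.

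The gain in *JAG1* was seen in cells of low and of high count. Cells were randomly thinned to a common 18000 UMIs, which equalises depth and left 2970 cells. The median was 2 *JAG1* UMIs per Ctrl cell, and 4, 4 and 5 per cell at 1, 3 and 7 days. Cells with no *JAG1* UMI made up 18.6% in Ctrl and 4.56%, 3.40% and 1.82% at 1, 3 and 7 days. Cells with 10 or more UMIs made up 0.474% in Ctrl (interval 0.129% to 1.21%) and 15.8% at 7-day (12.9% to 19.2%). Both ends of the distribution lay higher at 7-day than in Ctrl. The 174 cells too shallow to thin, 89 of them from the untreated library, are not in these shares. Without thinning 91.2% of Ctrl and 99.6% of 7-day cells had a *JAG1* UMI. No cell type lacking these genes was in the data, so the share of cells with a UMI from free RNA could not be measured.

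*JAG2*, the second Jagged ligand (chr14:105140982-105168824), followed a flatter course. Its level was 18.6 CPM in Ctrl (17.1 to 20.2), 23.6 CPM at 1-day (22.0 to 25.3), 32.4 CPM at 3-day (30.5 to 34.5) and 29.1 CPM at 7-day (27.0 to 31.3). The treated libraries lay above Ctrl, but the intervals of 3-day and 7-day overlapped (log2 ratio −0.16, −0.30 to −0.02), and none of the ratios to Ctrl reached 2-fold (at most 1.74-fold, at 3-day). In cells called G1 the log2 ratio to Ctrl was larger, at 0.95, 1.32 and 1.03 at 1, 3 and 7 days against 0.34, 0.80 and 0.64 over all cells, with 65 *JAG2* UMIs in the Ctrl cells called G1. *JAG1* made up 86.5% of the UMIs of the pair in Ctrl (85.4% to 87.5%) and 91.9% at 7-day (91.4% to 92.5%).

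The receptors went in opposite directions. *NOTCH2* (chr1:119911553-120100779) was at 25.4 CPM in Ctrl (23.7 to 27.3), 30.2 CPM at 1-day (28.4 to 32.1), 45.0 CPM at 3-day (42.7 to 47.4) and 53.7 CPM at 7-day (50.9 to 56.6). Each library lay above the one before it, with no overlap of intervals. The step from 1-day to 3-day (log2 ratio 0.58, 0.46 to 0.69) was larger than that from Ctrl to 1-day (0.25, 0.11 to 0.39), but it covers a longer time. The ratio to Ctrl passed 2-fold at 7-day (2.11-fold, 1.93 to 2.31) and not at 3-day (1.77-fold, 1.62 to 1.93), although in thinned cells the log2 ratio at 3-day was 1.07. In cells called G1 the log2 ratio at 7-day was 1.24, against 1.08 over all cells. A partial copy of the gene, *NOTCH2NL*, had 50, 44, 59 and 64 UMIs in the same libraries, against 763, 995, 1446 and 1363 for *NOTCH2*, and reads common to both may be placed on either or on neither.

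*NOTCH3* (chr19:15159038-15200995) fell from 18.8 CPM in Ctrl (17.3 to 20.4) to 8.44 CPM at 1-day (7.47 to 9.49), 7.22 CPM at 3-day (6.32 to 8.21) and 7.92 CPM at 7-day (6.86 to 9.09). All treated libraries lay well below Ctrl, whereas their own intervals overlapped, and the log2 ratios of 3-day to 1-day (−0.23, −0.48 to 0.03) and of 7-day to 3-day (0.13, −0.15 to 0.41) had intervals that held 0. Ctrl was thus 2.22-fold higher than 1-day, 2.60-fold higher than 3-day and 2.37-fold higher than 7-day. *NOTCH2* made up 57.5% of the UMIs of the 2 receptors in Ctrl (54.8% to 60.2%), 78.2% at 1-day (75.8% to 80.4%), 86.2% at 3-day (84.4% to 87.8%) and 87.1% at 7-day (85.4% to 88.8%). The mix of these receptor transcripts had therefore shifted to *NOTCH2* by 1-day and changed little between 3-day and 7-day.

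*NOTCH1* (chr9:136494433-136546048) was scarce, with 101 UMIs in Ctrl and 41, 86 and 110 UMIs at 1, 3 and 7 days, and its mean level was under the 5 CPM minimum. Its level was 3.37 CPM in Ctrl (2.74 to 4.09), 1.24 CPM at 1-day (0.89 to 1.69), 2.68 CPM at 3-day (2.14 to 3.30) and 4.33 CPM at 7-day (3.56 to 5.22). Against Ctrl only the 1-day library stood apart, at a log2 ratio of −1.44 (−2.00 to −0.90), and the intervals of the ratios at 3-day and 7-day held 0. The 3-day library lay above 1-day and the 7-day library above 3-day without overlap. The 1-day library was also the one with the most cells called G1. Within G1 cells the log2 ratio of 1-day to Ctrl was −1.15, from only 22 and 11 UMIs. The intervals of these G1 levels overlapped (0.572 to 1.38 CPM for 1-day, 1.01 to 3.62 CPM for Ctrl). In S, 1-day lay lower without overlap, at 1.38 CPM (0.447 to 3.21, 5 UMIs) against 4.31 CPM (3.31 to 5.51) for Ctrl. In G2M they were alike, at 2.69 CPM (1.47 to 4.51) for 1-day against 2.72 CPM (1.79 to 3.95) for Ctrl. The part of phase in the *NOTCH1* level was not tested.

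In thinned cells, a UMI of *JAG1* or *JAG2* was found in 85.9% of Ctrl cells and in 97.1%, 97.8% and 98.7% of cells at 1, 3 and 7 days. A UMI of *NOTCH1*, *NOTCH2* or *NOTCH3* was found in 52.5% of Ctrl cells and in 49.7%, 62.9% and 68.3%, respectively. Cells with a UMI of both a ligand and a receptor made up 45.3% in Ctrl (41.9% to 48.7%), 47.8% at 1-day (44.5% to 51.1%), 61.2% at 3-day (57.4% to 64.8%) and 67.8% at 7-day (63.7% to 71.7%). The share with both was higher at 3-day and 7-day than in Ctrl or at 1-day, without overlap of intervals. As nearly every treated cell had a ligand UMI, this share mostly follows the share of cells with a receptor UMI. It does not show that ligand and receptor went together in cells. These shares depend on depth, and without thinning a UMI of *NOTCH2* alone was found in 51.1% of Ctrl cells and in 60.6%, 80.1% and 84.9% at 1, 3 and 7 days. Within a library, the 36 pairs of the 9 genes had Spearman rho across cells of between −0.14 and 0.13, values that are weak in sparse counts and are given as a description only.

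*LFNG*, the Fringe glycosyltransferase (chr7:2512529-2529177), had the largest ratio of the 9 genes and an early course. Its level was 5.50 CPM in Ctrl (4.69 to 6.41), 31.6 CPM at 1-day (29.7 to 33.6), 25.7 CPM at 3-day (24.0 to 27.5) and 10.2 CPM at 7-day (9.04 to 11.6). The 1-day library was the highest, each later library lay lower without overlap, and all lay above Ctrl. The ratio to Ctrl was 5.75-fold at 1-day (4.87 to 6.82), 4.67-fold at 3-day (3.95 to 5.56) and 1.86-fold at 7-day (1.53 to 2.28). From 3-day to 7-day *LFNG* fell, with a log2 ratio of −1.33 (−1.53 to −1.12), and 50 of the 9659 genes had a lower ratio over that step. In cells called G1 the log2 ratio to Ctrl was larger, at 3.16, 2.81 and 1.36 at 1, 3 and 7 days. Over all cells it was 2.52, 2.22 and 0.90, so that only in G1 was 7-day past 2-fold of these 2 readings. The Ctrl cells called G1 held only 20 *LFNG* UMIs. Thinned cells with no *LFNG* UMI made up 91.4% in Ctrl and 60.8%, 67.4% and 83.8% at 1, 3 and 7 days.

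**Figure D2:**
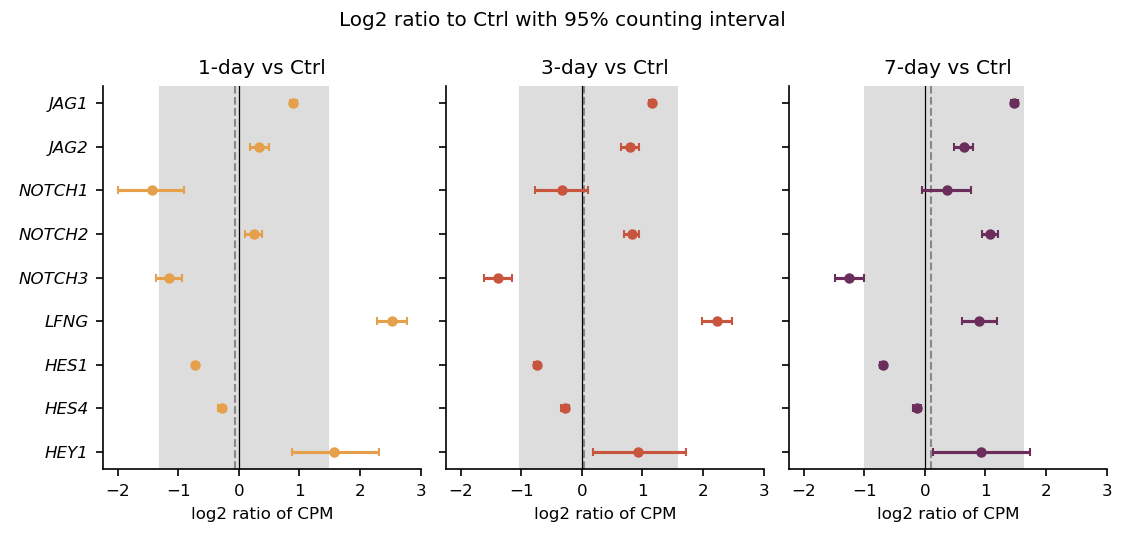
Log2 ratio of CPM to Ctrl (horizontal axis) for each of the 9 Notch genes at 1-day, 3-day and 7-day, with points for the ratio and whiskers for the 95% counting interval. The grey band runs from the 5th to the 95th percentile of the 9659 genes past the minimum level and the dashed line is their median. *LFNG* lies beyond the band at 1-day (2.52) and 3-day (2.22). *NOTCH3* lies within it at 1-day (−1.15) and beyond it at 3-day (−1.38) and 7-day (−1.25). The scarce *HEY1* (1.57) and *NOTCH1* (−1.44) lie beyond it at 1-day.

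*HES1* and *HES4* encode basic helix-loop-helix repressors that Notch signalling is known to turn on through RBPJ. The sequences that run up to their start sites are shown because both genes were lower over all cells after treatment and RBPJ is known to bind near the start of *HES1*. They come from RefSeq windows of 250 bases on GRCh38.p14 that end at the base before the RefSeq start, and are printed 5′ to 3′ on the strand of the gene. Capitals mark TGGGAA, the core letters of the RBPJ motif. *HES1* lies at chr3:194136148-194138732 on the plus strand, and its window is chr3:194135898-194136147. *HES4* lies at chr1:998962-1000172 on the minus strand, and its window is shown from 250 bases before the start up to the end of the match, at chr1:1000168-1000347, because the first exon of another isoform in GENCODE begins within the match.
HES1: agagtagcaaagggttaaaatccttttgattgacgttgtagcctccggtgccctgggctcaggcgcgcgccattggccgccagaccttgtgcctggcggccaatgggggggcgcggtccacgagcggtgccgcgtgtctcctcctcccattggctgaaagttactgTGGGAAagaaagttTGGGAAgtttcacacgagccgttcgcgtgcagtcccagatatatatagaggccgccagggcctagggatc
HES4: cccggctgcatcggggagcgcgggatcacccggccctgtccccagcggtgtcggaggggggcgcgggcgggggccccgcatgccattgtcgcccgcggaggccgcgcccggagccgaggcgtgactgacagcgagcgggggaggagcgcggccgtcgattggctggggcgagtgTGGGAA
The *HES1* window held 2 matches, which begin 84 and 70 bases before the start and lie 8 bases apart, and the *HES4* window held 1, which begins 76 bases before the start. Among 35116 RefSeq windows of the same length, 20.8% held TGGGAA on either strand and 2.90% held it at 2 or more places, while the longer GTGGGAA, which contains TGGGAA, was in 5.43%. Of the 8 Notch genes matched to 1 or more windows, 3 held TGGGAA. These were *HES1*, *HES4* and, in 1 of its 2 windows, *LFNG*, which was higher after treatment. CAGAC, the SMAD-binding letters, was held by 2 of the 8 genes and was in 38.0% of all windows. The windows of *HES1* and *HES4* each held the longer GTGGGAA as well. Other forms of the RBPJ motif were not searched for. These are matches of letters and were not tested as binding sites.

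*HES1* had the most UMIs of the 9 genes in Ctrl, at 359 CPM (352 to 366). It was at 219 CPM at 1-day (214 to 224), 214 CPM at 3-day (209 to 219) and 223 CPM at 7-day (217 to 229). The treated libraries lay below Ctrl without overlap and close to each other. The log2 ratio to Ctrl was −0.72 (−0.76 to −0.67) at 1-day, −0.75 (−0.79 to −0.70) at 3-day and −0.69 (−0.73 to −0.64) at 7-day, so that Ctrl was between 1.61-fold and 1.68-fold higher. None of these passed 2-fold over all cells, and in cells called G1 the 3-day ratio did, at −1.06.

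*HES1* counts differed more between cells than those of *JAG1*. At 1-day, where their means were alike (3.81 UMIs per thinned cell for *HES1* and 4.07 for *JAG1*), the variance was 3.59 times the mean for *HES1* and 1.71 times the mean for *JAG1*. The same ratio was 4.53 (Ctrl), 2.76 (3-day) and 2.80 (7-day) for *HES1*, and 1.61, 2.08 and 2.28 for *JAG1*. By this ratio the 2 genes were closest at 7-day, but their means were alike only at 1-day. Means were 6.48, 3.59 and 3.92 UMIs for *HES1* in Ctrl, 3-day and 7-day, and 2.11, 4.84 and 6.00 for *JAG1*. The part of these means in the ratio was not tested. Cells with 10 or more *HES1* UMIs made up 22.2% in Ctrl (19.4% to 25.1%), 6.78% at 1-day (5.22% to 8.62%), 5.76% at 3-day (4.13% to 7.79%) and 7.29% at 7-day (5.26% to 9.79%). Cells with none made up 6.16%, 16.0%, 12.1% and 13.1%, respectively. The lower *HES1* level after treatment thus came with fewer cells of high count and more cells with none. Within phases the ratio of variance to mean for *HES1* was between 4.29 and 4.73 in Ctrl and between 3.26 and 3.95 at 1-day. In G1, S and G2M it was 2.48, 2.16 and 3.35 at 3-day, and 2.97, 2.60 and 2.67 at 7-day.

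**Figure D3:**
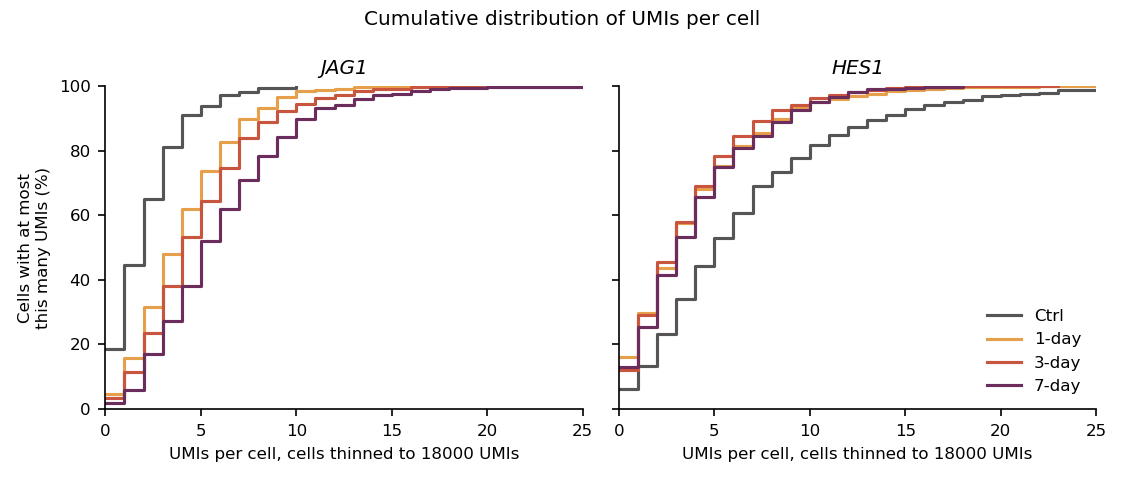
Share of cells (vertical axis, percent) with at most a given number of *JAG1* or *HES1* UMIs (horizontal axis) in cells thinned to 18000 UMIs, 1 line per library. The *JAG1* lines move to the right with time, and the *HES1* lines of the treated libraries lie together, to the left of Ctrl, where 22.2% of cells had 10 or more UMIs.

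*HES4* differed less, with 158 CPM in Ctrl (153 to 162), 129.5 CPM at 1-day (126 to 133), 130.2 CPM at 3-day (126 to 134) and 144 CPM at 7-day (139 to 149). The treated libraries lay below Ctrl, 1-day and 3-day overlapped, and 7-day lay between these and Ctrl. The log2 ratio to Ctrl was −0.28 (−0.34 to −0.22), −0.28 (−0.34 to −0.22) and −0.13 (−0.19 to −0.07) at 1, 3 and 7 days. In the first part of the cells it was −0.20, −0.12 and −0.06, and in the second part −0.37, −0.43 and −0.20. All of these lay outside the counting intervals, which are thus too narrow for the spread within a library. At 1-day this difference was not seen within cells called G1, where the level was 121 CPM in Ctrl and 122 CPM at 1-day (log2 ratio 0.01). In cells called G2M, *HES4* was at 123 CPM in Ctrl (116 to 130) and at 143, 119 and 144 CPM at 1, 3 and 7 days. There 1-day (133 to 154) and 7-day (136 to 152) lay above Ctrl without overlap. In cells called S all treated libraries lay below Ctrl. Cells called S made up 48.9% in Ctrl and 11.3% at 1-day, and the part of this in the *HES4* level was not tested.

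Cell cycle phase went with the level of several of the genes in every library. *HES4* was highest in cells called S, at 195, 163, 175 and 174 CPM in Ctrl, 1-day, 3-day and 7-day, against 121, 122, 101 and 114 CPM in G1. *JAG1* was lower in G2M than in G1 in each library, with log2 ratios of −0.41, −0.49, −0.17 and −0.48, and its level in G1 alone was 139.8, 237, 292 and 411 CPM. *JAG1* was thus higher at each later time within G1 as well. *NOTCH3* was lower in G2M than in G1 by log2 ratios of −0.85, −1.02, −0.49 and −0.56, of which the 3-day interval held 0 (−1.01 to 0.01). *HES1* did not differ between G2M and G1 beyond counting error in Ctrl (−0.03, −0.11 to 0.04) but was higher in G2M at 1-day (0.30, 0.21 to 0.38), 3-day (0.68, 0.60 to 0.76) and 7-day (0.47, 0.37 to 0.56). In each phase *HES1* was lower in the treated libraries than in Ctrl, at 379 CPM in Ctrl and 213, 182 and 194 CPM after treatment in G1, and at 369.8 CPM and 261, 291 and 268 CPM in G2M. Phases were called from marker genes of the same cells.

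**Figure D4:**
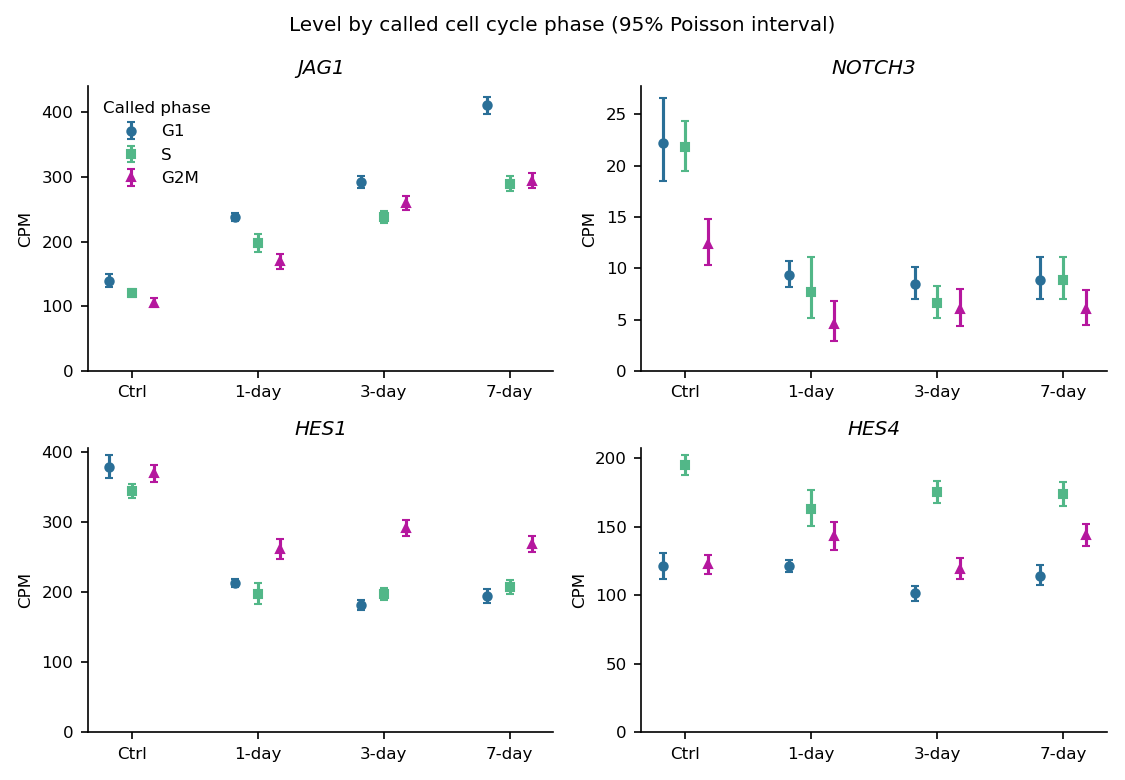
Level in CPM (vertical axis, linear from 0) of *JAG1*, *NOTCH3*, *HES1* and *HES4* in cells called G1 (circles), S (squares) and G2M (triangles) in each library, with 95% Poisson intervals. *HES4* is highest in S in each library (163 to 195 CPM), and *HES1* lies below its Ctrl level in each phase after treatment.

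*HEY1*, a HEY repressor and Notch target (chr8:79762371-79767857), was scarce, with 23 UMIs in Ctrl and 75, 47 and 37 UMIs at 1, 3 and 7 days, and its mean level was under the minimum. Its level was 0.767 CPM (0.486 to 1.15) in Ctrl, 2.28 CPM (1.79 to 2.85) at 1-day, 1.46 CPM (1.07 to 1.94) at 3-day and 1.46 CPM (1.03 to 2.01) at 7-day. The intervals of 3-day and 7-day overlapped that of Ctrl, while the log2 ratios of these libraries to Ctrl had intervals above 0 (0.18 to 1.72 and 0.14 to 1.75). The log2 ratio to Ctrl was 1.57 at 1-day with an interval from 0.88 to 2.31, the opposite direction from *HES1* and *HES4* over all cells at that time. Thinning each cell kept UMIs of *HEY1* in only 9 Ctrl, 25 1-day, 22 3-day and 10 7-day cells. These were 1.07%, 2.78%, 3.25% and 1.82% of the thinned cells. In thinned cells the log2 ratio of 3-day to 1-day was −0.04, against −0.64 without thinning, so 1-day did not stand above 3-day at equal depth.

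The Notch genes were read against all 9659 genes past the minimum level, of which 7 are members. At 1-day, 1 member was at least 2-fold higher than Ctrl (*LFNG*) and 1 at least 2-fold lower (*NOTCH3*), where 9.25% and 8.52% of all genes were, respectively. At 3-day, 2 were higher (*JAG1* and *LFNG*) and 1 lower (*NOTCH3*), beside 9.92% and 5.25% of all genes. At 7-day, 2 were higher (*JAG1* and *NOTCH2*) and 1 lower (*NOTCH3*), beside 11.3% and 4.91%. From 1-day to 3-day no member passed 2-fold in either direction, beside 4.78% of genes higher and 2.46% lower. From 3-day to 7-day, *LFNG* was lower and no member was higher, beside 0.911% and 1.17% of genes. The median log2 ratio to Ctrl of the 7 members was 0.25, 0.80 and 0.64 at 1, 3 and 7 days, and that of all genes −0.06, 0.04 and 0.10. With so few members, chosen with earlier results of these data known, these counts and medians are a description. Nothing particular to the pathway is read from them.

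Of 50 other Notch pathway genes, 34 passed the minimum level. At least 2-fold higher than Ctrl were 2 of the 34 at 1-day, 2 at 3-day and 4 at 7-day, and 1 was lower at each time. Of all 9659 genes, 9.25%, 9.92% and 11.3% were higher at these times, and 8.52%, 5.25% and 4.91% lower. Nothing particular to the pathway is read from these counts. The median log2 ratio of the 34 was 0.11, 0.17 and 0.25. The largest ratio among these 34 was that of *FURIN*, the protease that cuts the Notch precursor, at 10.3 CPM in Ctrl and 88.1, 55.5 and 33.1 CPM at 1, 3 and 7 days (log2 ratios 3.09, 2.43 and 1.68). Like *LFNG*, it was highest at 1-day and lower at each later time. *PSENEN*, a subunit of the γ-secretase that releases the intracellular domain, was past 2-fold at 1-day alone, at 70.9 CPM in Ctrl and 151, 129 and 80.7 CPM after treatment. *TLE1*, a corepressor that works with HES proteins, was at 25.7 CPM in Ctrl and 46.6, 69.0 and 80.7 CPM, higher at each later time. *DTX2*, a Deltex ubiquitin ligase, was at 16.8, 21.0, 27.5 and 44.2 CPM, and *DLL3*, a divergent Delta-like ligand, at 3.63, 2.61, 6.66 and 12.2 CPM. Both of these passed 2-fold over Ctrl at 7-day, and *DLL3* also from 1-day to 3-day.

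*NRARP*, a known Notch target whose product limits Notch signalling, was the 1 other pathway gene past the minimum that fell at least 2-fold. Its level was 11.5 CPM in Ctrl and 4.64, 3.61 and 4.85 CPM at 1, 3 and 7 days, with log2 ratios of −1.31 (−1.59 to −1.03), −1.67 (−1.99 to −1.36) and −1.25 (−1.56 to −0.95). It lay under Ctrl in all treated libraries, as *HES1* and *NOTCH3* did. *RBPJ* was at 45.6 CPM in Ctrl and 51.2, 71.2 and 74.3 CPM, under 2-fold at each time. None of the 34 other pathway genes past the minimum passed 2-fold from 3-day to 7-day, beside 1.17% of all genes higher and 0.911% lower.

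**Figure D5:**
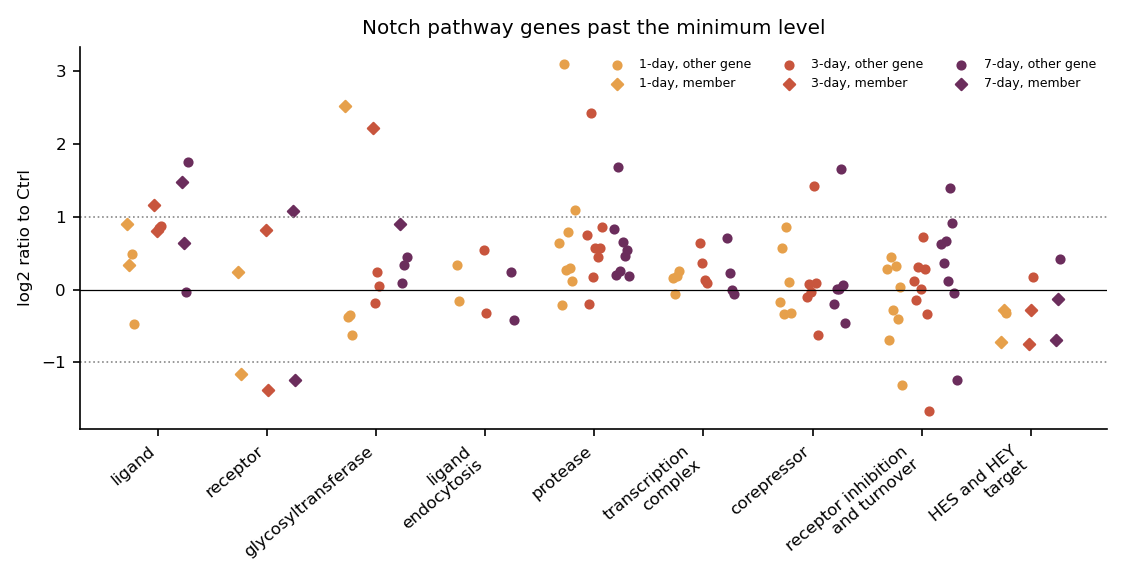
Log2 ratio of CPM to Ctrl (vertical axis) for the Notch pathway genes past the minimum level, grouped by role, at 1-day, 3-day and 7-day, with diamonds for the 7 members and circles for the 34 other genes. Dotted lines mark 2-fold. *FURIN* reaches 3.09 among the proteases and *NRARP* lies at −1.31, −1.67 and −1.25 among the genes of receptor inhibition and turnover.

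The genes whose 3 log2 ratios to Ctrl lay nearest to those of each member were found among 5475 genes with a mean of at least 20 CPM, as a Euclidean distance over 3 ratios that share the Ctrl library. Nearest to *JAG1* were *PIP4K2C* (distance 0.09) and *MET*, a receptor tyrosine kinase (0.12), and 132 genes lay within 0.5. *LFNG* had the fewest genes near it, with *LMCD1* (0.26) and *TPM1*, a tropomyosin (0.50), as the only 2 within 0.5. *TPM1* was at 284 CPM in Ctrl and 1920, 1546 and 688 CPM at 1, 3 and 7 days. Nearest to *NOTCH3* were *PAK1* (0.14) and *RP4-568C11.4* (0.17), of 34 within 0.5. Nearest to *HES1* were *FAM83H-AS1* (0.07) and *DDI2* (0.09), of 335. Nearest to *NOTCH2* were *TOR1AIP1* (0.04) and *TMX3* (0.07), of 251, to *JAG2* *FOXC2* (0.08) and *RAP1B* (0.08), of 579, and to *HES4* *TMEM38B* (0.03) and *NDUFV2* (0.04), of 1520. By this distance many genes lay near *HES4* and *JAG2*, and few near *LFNG*. The distance takes in the size of the ratios as well as their timing, so a gene with small ratios has more genes within a fixed 0.5. It therefore does not tell how common the timing of *LFNG* was. *FURIN*, also highest at 1-day and lower at each later time, did not lie within 0.5 of *LFNG*.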

How the data were processed

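The authors made 1 droplet-based 3′ library per condition and, per the submitters' processing notes, used Cell Ranger 2.0.1 with GRCh38; the deposited values are raw UMI counts for every gene in every cell. The tables end within a cell, so the complete cells in barcode order were used (941, 945, 712 and 572 for Ctrl, 1-day, 3-day and 7-day). Cells with more than 200 genes and at most 20% mitochondrial UMIs were retained (933, 937, 705 and 569). The study gives no number for its own mitochondrial limit. Scrublet marked 33 cells as doublets, which were kept.

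Counts were summed over cells and given as CPM with exact Poisson intervals, log2 ratios with exact conditional binomial intervals, and shares of cells with exact Clopper-Pearson intervals, all at 95% and for counting error only. UMIs were counted as molecules. Genes with a mean of at least 5 CPM over the 4 libraries were called at a ratio of 2-fold. Phases used scanpy 1.11.5 with the gene lists of Seurat 5.3.0. Python 3.11.15 and R 4.3.3 were used. Positions are those of GENCODE release 44, matched by Ensembl identifier, and promoter windows those of RefSeq.

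The members and lists were chosen with earlier results of these data known. The genes named are the 9 members, other pathway genes past 2-fold, genes of TGF-β1 response (1 is not reported here), cell type markers and the 2 genes nearest to each member. *RBPJ*, *NOTCH2NL*, *MAML1*, *MAML2*, *HES7*, *NEURL1B* and the 3 genes singled out in the closing observations were named outside that rule, after their values were seen. The alternatives were another scaling, mitochondrial limit, doublets left out, means over cells, thinning, G1 cells only, each part of the cells alone, other minimum levels and a 1.5-fold ratio. The intervals of the ratios and the 2-fold calls were tested on simulated counts that held counting error only, without variation between libraries. Thinning, phase and doublet calls, shares of cells, nearest genes and the motif search were not simulated. SCTransform and regression of phase were not applied.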

Additional observations from a re-analysis of the deposited data

How the results depend on the processing

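No paired analysis was possible because with 1 library each the groups share fewer than 2 replicate numbers. For the same reason no p-value is given, no library could be left out, and a difference between libraries cannot be told apart from a difference between conditions. The log2 ratios of the 7 members past the minimum shifted by at most 0.63 with G1 cells only, 0.37 with either part of the cells, 0.24 with thinning and 0.14 with means over cells. Over the ratios of all members, 33 values lay within the main counting interval in each part of the cells. In the first part 11 lay outside it and 1 changed sign, and in the second part 12 lay outside it. The counting intervals thus do not take in the spread between parts of a library. Among ratios whose counting interval did not hold 0, the sign changed in these cases only. *HES1* from 3-day to 7-day was −0.0198 with median-of-ratios scaling and −0.0206 in the first part of the cells, and *HES4* at 1-day over Ctrl was 0.00617 in G1 cells. Signs also changed for ratios whose interval held 0, with the values furthest from 0 for *NOTCH3* in the first part of the cells (0.13 from 1-day to 3-day and −0.19 from 3-day to 7-day) and *HES4* from 1-day to 3-day in G1 cells (−0.26), and also for *HES1* and *HES4* from 1-day to 3-day, *HEY1* and *NOTCH3* from 3-day to 7-day and *NOTCH1* at 3-day over Ctrl. The cause was not tested.

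Counts of genes and members past the ratio depended on the minimum and on the ratio itself, which change which genes are counted. In the main setting, of 9659 genes, 893, 958 and 1088 were higher than Ctrl at 1, 3 and 7 days, and 823, 507 and 474 lower. From 1-day to 3-day 462 were higher and 238 lower, and from 3-day to 7-day 113 and 88. For genes higher than Ctrl at 1, 3 and 7 days, a 20 CPM minimum gave 524, 567 and 593, a 1 CPM minimum 1298, 1386 and 1641 and a 1.5-fold ratio 1602, 1818 and 2074. For genes lower than Ctrl, a 20 CPM minimum gave 364, 190 and 203, a 1 CPM minimum 1347, 1084 and 996 and a 1.5-fold ratio 1873, 1209 and 1045, and G1 cells gave 740 at 7-day. From 1-day to 3-day, the 20 CPM minimum, 1 CPM minimum and 1.5-fold ratio gave 204, 722 and 1356 genes higher and 94, 564 and 627 lower. From 3-day to 7-day they gave 43, 317 and 461 higher and 37, 216 and 280 lower, and G1 cells gave 136 lower.

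Of the members, the 20 CPM minimum left 0 higher at 1-day, 1 at 3-day (*JAG1*) and 0 lower at each time over Ctrl and from 3-day to 7-day, because *NOTCH3* and *LFNG* are under it. The 1 CPM minimum, which all 9 members pass, gave 2 higher (*LFNG* and *HEY1*) and 2 lower (*NOTCH1* and *NOTCH3*) at 1-day and 1 higher from 1-day to 3-day (*NOTCH1*). The number of all genes past the 1 CPM and 20 CPM minima is not given. These member counts thus have no share over all genes beside them, and nothing about the pathway is read from them. The 1.5-fold ratio gave 2 higher at 1-day (*JAG1* and *LFNG*), 4 at 3-day and 4 at 7-day (*JAG1*, *JAG2*, *NOTCH2* and *LFNG*), and 2 lower at each time (*NOTCH3* and *HES1*). In G1 cells 3 were higher at 3-day (*JAG1*, *JAG2* and *LFNG*), 4 higher at 7-day (*JAG1*, *JAG2*, *NOTCH2* and *LFNG*) and 2 lower at 3-day (*NOTCH3* and *HES1*). In thinned cells *JAG1*, *NOTCH2* and *LFNG* were higher at both 3-day and 7-day. Over all genes, 1050 and 1329 were higher at 3-day and 7-day in G1 cells, and 1013 and 1144 in thinned cells. G1 cells gave 636 genes lower at 3-day.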

Other observations

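The 3 Notch pathway genes under the 5 CPM minimum that follow, *NOTCH4*, *HES2* and *MAML3*, were chosen after their values were seen. They are not the largest changes under the minimum. *NEURL1B*, of ligand endocytosis, had 4, 52, 170 and 83 UMIs in Ctrl, 1-day, 3-day and 7-day. Its log2 ratio to Ctrl at 3-day was 5.31 (3.93 to 7.20), larger than any of theirs. *NOTCH4*, a receptor best known from endothelium, had 12, 39, 47 and 109 UMIs in Ctrl, 1-day, 3-day and 7-day (0.400, 1.18, 1.46 and 4.29 CPM), and by 7-day its level was close to that of *NOTCH1* (4.33 CPM). The endothelial markers *PECAM1*, *VWF* and *CLDN5* had at most 4 UMIs in any library, and *CDH5* was higher in Ctrl than after treatment. *HES2*, a HES family repressor, was at 0.900, 0.880, 1.90 and 9.81 CPM, with a log2 ratio of 3-day to 1-day of 1.11 (0.45 to 1.80) and of 7-day to 3-day of 2.37 (1.96 to 2.80), while *HES1* had a log2 ratio of 0.06 over the latter step. *MAML3*, a coactivator of the RBPJ complex, was at 8.17 CPM in Ctrl and 2.06, 1.31 and 2.68 CPM after treatment (log2 ratio to Ctrl at 3-day −2.64, −3.15 to −2.17). Its relative *MAML2*, also under the minimum, went the other way, at 1.37 CPM in Ctrl and 5.13, 4.32 and 8.31 CPM after treatment. *MAML1*, which passed the minimum, was at 8.27 CPM in Ctrl and 7.92, 10.7 and 9.65 CPM after treatment.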
